A study of Homo sapiens with 6 samples.

Results

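The 10 genes described here encode the antigens used to sort the mesodermal progenitors and cell surface markers of stem cells. They are EPCAM, NCAM1, THY1, PODXL, PROM1, CD24, ALCAM, MCAM, NT5E and L1CAM. Every probe set (a group of oligonucleotide probes read as 1 value) annotated to 1 of these symbols alone was taken, which gave 30 of the 54675 probe sets on the array. EPCAM and NCAM1, whose proteins defined the sort, hold 8 of them. The other 8 genes hold 22, with 6 for CD24, 4 for NT5E, 3 each for THY1 and ALCAM, 2 each for MCAM and L1CAM, and 1 each for PODXL and PROM1. A further 4 probe sets carry MCAM together with another symbol and are no members. All 30 members were measured on every array, and no filter on low values was applied.

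Messenger RNA levels were measured on 6 arrays, 3 of undifferentiated H9 cells and 3 of mesodermal progenitors made from H9. H9 is a long-established human embryonic stem cell (hESC) line, so both groups share 1 genetic background. The progenitors had been induced with activin A, BMP4, FGF2 and VEGF, in the medium Stemline II, and taken on day 3.5 by fluorescence-activated sorting for cells without CD326 (the EPCAM protein) and with CD56 (the NCAM1 protein). No unsorted day 3.5 culture and no sorted hESC are among the samples, so the sort and the induction cannot be told apart. Whether arrays of 1 group are of separate cultures is not stated in the labels, so the p-values cover the spread among these arrays alone, and that spread may be technical.

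Surface antigens of this kind are proteins that antibodies can reach on living cells. EPCAM is a homophilic adhesion molecule of epithelia that pluripotent stem cells also carry. NCAM1 is an immunoglobulin-class adhesion molecule, best known from neurons and found on early mesoderm, whose adhesion is weakened when sialyltransferases add polysialic acid chains. THY1 (CD90), CD24 and NT5E (CD73) are held in the outer membrane leaflet by a glycosylphosphatidylinositol (GPI) anchor. PODXL (podocalyxin, the carrier of the TRA-1 epitopes) is a heavily sialylated sialomucin, and PROM1 (CD133) is a pentaspan protein of membrane protrusions. ALCAM (CD166), MCAM (CD146) and L1CAM are adhesion molecules of the immunoglobulin superfamily.

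Promoter sequences are shown for 3 genes, chosen after their values were seen because they differed in pattern: PROM1, which fell in the progenitors, ALCAM, of which 2 of 3 probe sets rose, and NT5E, which was near the low end of the arrays in both groups. Each is the 250 bases before the gene's outermost start in RefSeq on GRCh38.p14, printed 5′ to 3′ on the gene's strand. Capitals mark GGGCGG, the GC box, and CAGGTG, an E-box of the kind bound by SNAI and ZEB repressors, on either strand (CCGCCC and CACCTG are their reverse complements, and neither motif contains the other). The PROM1 stretch lies at chr4:16084024-16084273 on the minus strand, the ALCAM stretch at chr3:105366659-105366908 on the plus strand and the NT5E stretch at chr6:85449833-85450082 on the plus strand.
PROM1: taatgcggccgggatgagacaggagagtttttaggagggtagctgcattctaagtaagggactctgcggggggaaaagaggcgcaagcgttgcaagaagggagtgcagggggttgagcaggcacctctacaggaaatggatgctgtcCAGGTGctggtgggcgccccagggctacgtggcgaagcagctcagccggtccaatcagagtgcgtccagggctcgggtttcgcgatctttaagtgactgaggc
ALCAM: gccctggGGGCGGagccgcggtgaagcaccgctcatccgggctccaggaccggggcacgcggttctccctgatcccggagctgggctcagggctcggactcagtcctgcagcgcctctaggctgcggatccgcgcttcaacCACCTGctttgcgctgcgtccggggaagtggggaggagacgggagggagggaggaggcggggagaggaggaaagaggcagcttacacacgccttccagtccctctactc
NT5E: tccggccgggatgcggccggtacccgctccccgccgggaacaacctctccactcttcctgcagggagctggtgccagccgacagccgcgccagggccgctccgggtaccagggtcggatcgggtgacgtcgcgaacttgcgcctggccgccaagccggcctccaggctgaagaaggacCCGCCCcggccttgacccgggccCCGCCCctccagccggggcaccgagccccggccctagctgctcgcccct
The PROM1 stretch holds 1 CAGGTG match, which begins at -103 from the start, and no GGGCGG match. The ALCAM stretch holds a GGGCGG match at -243 and a CAGGTG match on the reverse strand at -109. The NT5E stretch holds 2 GGGCGG matches on the reverse strand and no CAGGTG match. Among 35116 stretches of the same length before RefSeq starts, 42.6% hold GGGCGG and 17.5% hold CAGGTG. Bases G and C make up 58.8% of the PROM1 stretch, 68.8% of the ALCAM stretch and 75.2% of the NT5E stretch, against a median of 58.0% over all stretches. The dinucleotide CG occurs 13, 20 and 28 times in them, against a median of 11. The table of starts matched 6 of the 10 genes. No binding was measured on these arrays, and a match describes the letters only.

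On GRCh38.p14, EPCAM lies at chr2:47369311-47387020, PODXL at chr7:131500271-131556628, PROM1 at chr4:15968228-16084023 and ALCAM at chr3:105366909-105576900. CD24 lies at chr6:106969831-106976855, NT5E at chr6:85450083-85495784 and L1CAM at chrX:153861514-153886173. NCAM1 (chr11:112961420-113278436), MCAM (chr11:119308529-119317130) and THY1 (chr11:119415476-119424985) lie on chromosome 11. All 10 are protein-coding genes.

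Array medians were 30.98 to 31.24 intensity units for progenitors and 33.1 to 36.1 for hESC, and the biotin-labelled hybridization controls were dimmer in the progenitors (geometric means of 735 to 854) than in hESC (1020 to 1230). Levels and changes below are on the log2(intensity + 16) scale after quantile normalization, and a change is the mean of the progenitors minus the mean of hESC. This scale understates the change of low probe sets. Scaling the arrays on the hybridization controls instead moves the median change of all probe sets from 0.01 to 0.21. All 8 measured pluripotency markers were lower and all 9 markers of nascent mesoderm higher in the progenitors, with summed mesoderm intensities of 21910 to 22237 against 206 to 292. Of other lineages, 7 of 9 endothelial and blood, 6 of 8 definitive endoderm and 3 of 7 trophoblast and surface ectoderm markers were higher. SOX17 is among both the endothelial and the endoderm markers. Of 8 neuroectoderm markers, 2 were higher and 1 lower, where 26.7% of all genes were called higher and 21.2% lower. Summed trophoblast and surface ectoderm intensities were 2093, 2335 and 2340 on progenitor arrays 1, 2 and 3 against 112 to 115 in hESC. Only 7 genes were more than 2-fold apart between progenitor arrays 2 and 3, whereas array 1 differed from them in 208 and 180 genes. Between pairs of hESC arrays, 46 to 146 genes were this far apart. Progenitor arrays 2 and 3 were thus closer to each other than any pair of hESC arrays. Progenitor array 1 stood apart in several surface genes too. Most member results that rest on it are given with and without it. Most changes of list genes are given with all 6 arrays only. Some of these depend on it, such as ST8SIA4, which rose by 2.30 with array 1 and by 1.88 without it.

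The EPCAM transcript was low and the NCAM1 transcript high in the sorted cells. Since their proteins chose the cells, these values describe the sort and carry no test. EPCAM (201839_s_at) read 554, 680 and 675 intensity units on progenitor arrays 1, 2 and 3, and 3245, 3434 and 3366 on the hESC arrays. The groups were far apart, with an hESC mean 5.26-fold that of the progenitors. Its log2 level was 9.35 ± 0.19 (SD, n = 3) after the sort against 11.69 ± 0.05 in hESC, a change of -2.33 (SE 0.115), and 1.27% of all probe sets changed as far or further downward. EPCAM mRNA was still well above the array median of 30.98 to 31.24 in cells sorted for lack of the protein. In bulk RNA, fewer cells with a transcript and less transcript per cell cannot be told apart.

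NCAM1 has 7 probe sets, and they fell into a bright pair, a low pair with separate groups, and others at the low end. The probe set 227394_at read 1429, 1094 and 1105 in the progenitors and 104, 106 and 84.4 in hESC. All progenitor values exceeded all hESC values, with a mean 12.3-fold higher. The log2 level was 10.28 ± 0.21 (SD, n = 3) against 6.82 ± 0.13, a change of 3.46 (SE 0.133), and 0.526% of probe sets changed as far or further upward. The probe set 212843_at read 1103, 829 and 856 in the progenitors against 90.4, 92.1 and 73.4 in hESC, a ratio of 10.9. Both bright probe sets thus gave nearly the same ratio.

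The dimmer NCAM1 probe sets gave smaller differences. The probe set 209968_s_at read 89.95, 70.5 and 60.4 in the progenitors against 21.8, 22.5 and 28.7 in hESC, a log2 change of 1.21. The probe set 231532_at read 80.5, 59.2 and 59.4 against 18.4, 8.86 and 15.01, a change of 1.52. In both, the groups did not overlap. The remaining 3, 214952_at, 217359_s_at and 229799_s_at, were below the median of every array, with overlapping groups and log2 changes of 0.11, -0.09 and 0.24.

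Progenitor array 1 had the lowest EPCAM and the highest NCAM1 of the sorted samples. Relative to the mean of arrays 2 and 3 it was lower by a log2 difference of -0.33 for EPCAM and higher by 0.37 for NCAM1 (227394_at). Without it, the change was -2.23 for EPCAM and 3.35 for NCAM1. With the arrays scaled on hybridization controls, the changes were -1.85 and 3.90.

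**Figure D1:**
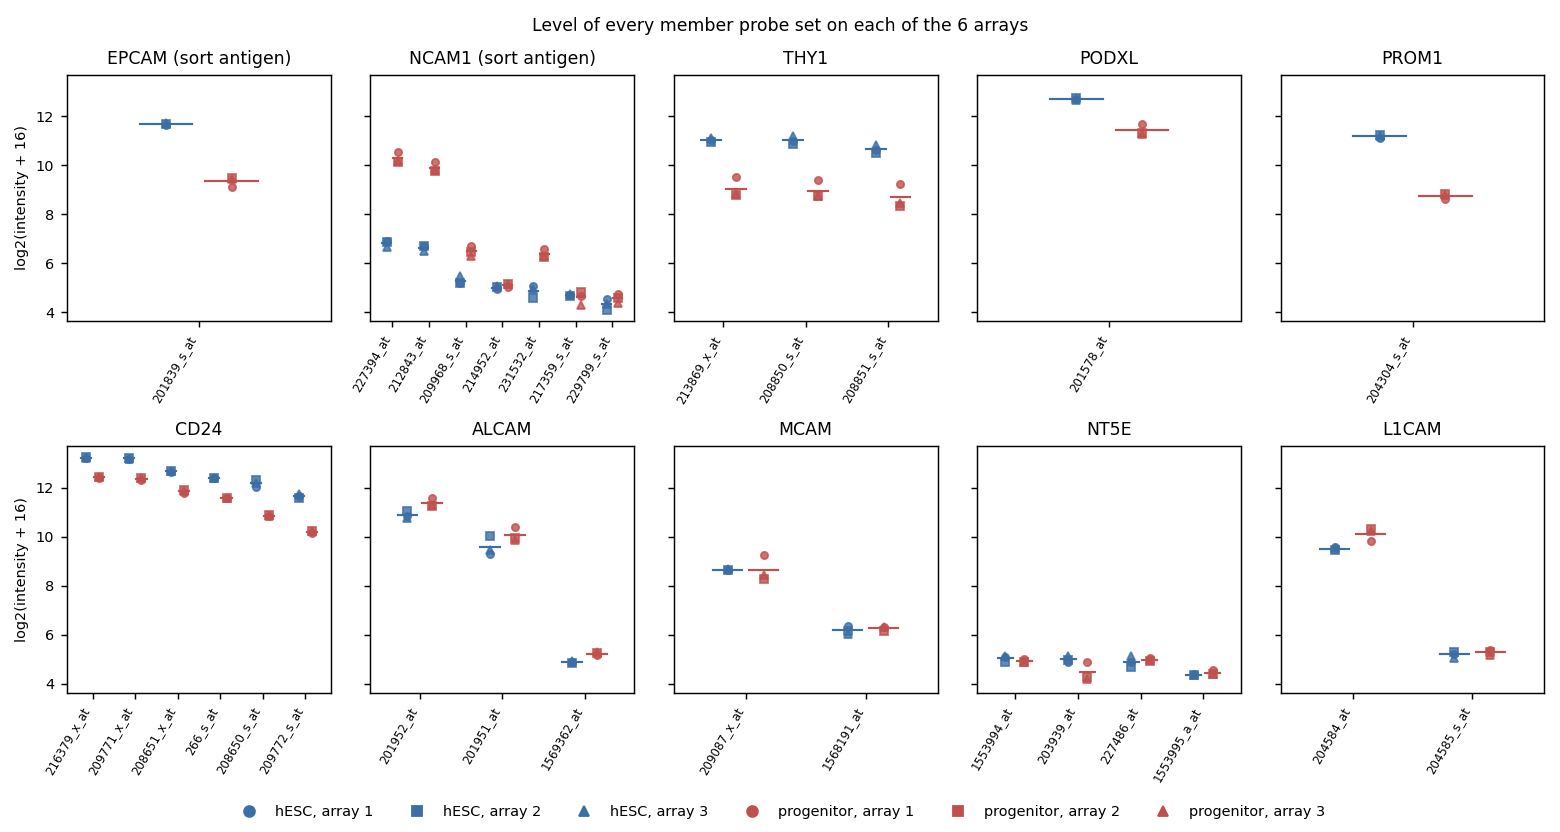
Log2(intensity + 16) of all 30 member probe sets on each of the 6 arrays after quantile normalization, 1 panel per gene, with probe sets ordered from bright to dim in hESC. Blue symbols are hESC and red symbols progenitors, the symbol shape gives the array number, and the horizontal lines are group means (n = 3). The progenitor points of EPCAM, THY1, PODXL, PROM1 and CD24 all lie below the hESC points, and those of the bright NCAM1 probe sets lie above.

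PROM1, THY1, PODXL and CD24 were all lower in the progenitors than in hESC, in every probe set. PROM1 had the largest fall on this scale. For each of these 11 probe sets, the 3 progenitor values lay below the 3 hESC values. The groups did not overlap, in either direction, in 51.2% of all probe sets. The share was 70.3% of those above the array median on all 6 arrays, as these 11 were.

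PROM1, the pentaspan protein of protrusions, has 1 member probe set (204304_s_at). It read 393, 436 and 430 in the progenitors and 2235, 2546 and 2344 in hESC. No progenitor array came near an hESC array, and the hESC mean was 5.66-fold higher. The log2 level was 8.76 ± 0.10 (SD, n = 3) against 11.19 ± 0.08, a change of -2.43 (SE 0.096, limma adjusted p = 3.91e-06), and 1.06% of probe sets fell as far or further. The change was -2.38 without progenitor array 1 and -1.94 with hybridization control scaling. The fall in PROM1 passed the test under all 19 alternatives, with changes from -2.47 to -1.94.

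THY1, a small GPI-anchored immunoglobulin-domain protein of hESC, neurons and mesenchymal cells, gave nearly the same values on its 3 probe sets. On 208850_s_at it read 660, 414 and 409 in the progenitors and 2098, 1961 and 2335 in hESC. Progenitor array 1 was the highest of the sorted samples but remained below the lowest hESC array. The hESC mean was 4.31-fold higher, with a log2 change of -2.06 (SE 0.195, limma adjusted p = 0.000181). The probe sets 213869_x_at and 208851_s_at changed by -1.98 (SE 0.205, limma adjusted p = 0.000272) and -1.96 (SE 0.240, limma adjusted p = 0.00059). Progenitor array 1 exceeded the mean of arrays 2 and 3 by 0.65 to 0.85 on the log2 scale in the 3 probe sets. Without it, the falls grew to -2.24, -2.29 and -2.26 for 213869_x_at, 208850_s_at and 208851_s_at. Hybridization control scaling gave -1.51 for 213869_x_at. All 3 THY1 probe sets passed under each of the 19 alternatives.

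PODXL, podocalyxin, was one of the brightest members in both groups. Its probe set 201578_at read 3295, 2439 and 2416 in the progenitors and 6769, 6775 and 6464 in hESC. The progenitors kept a high intensity, and the hESC mean was 2.46-fold theirs. The log2 level was 11.44 ± 0.23 (SD, n = 3) against 12.72 ± 0.05, a change of -1.28 (SE 0.129, limma adjusted p = 0.000248). The fall was -1.40 without progenitor array 1 and -0.78 with hybridization control scaling, and it passed the test under all 19 alternatives.

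CD24, a small, heavily glycosylated GPI-anchored protein, was lower on all 6 of its probe sets. The probe set 216379_x_at read 5284, 5516 and 5471 in the progenitors and 9535, 9615 and 9376 in hESC. The arrays of each group lay close together, and the ratio of hESC to progenitor means was 1.75. Its log2 change was -0.80 (SE 0.081, limma adjusted p = 0.000245). Changes of -0.82, -0.82 and -0.80 were found for 209771_x_at, 208651_x_at and 266_s_at. The probe set 208650_s_at read 1786, 1840 and 1773 against 4209, 5180.0 and 4618, a change of -1.32 (SE 0.102, limma adjusted p = 7.56e-05). The probe set 209772_s_at read 1113, 1147 and 1140 against 3315, 3181 and 3397, a change of -1.47 (SE 0.087, limma adjusted p = 2.3e-05). The latter pair therefore had the larger falls within CD24.

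The size of the CD24 fall depended on the probe set and on the scaling of the arrays. Under hybridization control scaling, 4 of the 6 probe sets no longer passed: 216379_x_at at -0.28 (limma adjusted p = 0.111), 209771_x_at at -0.29 (limma adjusted p = 0.112), 208651_x_at at -0.31 (limma adjusted p = 0.0901) and 266_s_at at -0.31 (limma adjusted p = 0.0743). These 4 passed under the other 18 of 19 alternatives, with adjusted p-values from 1.01e-06 upward for 216379_x_at. The remaining pair kept the call, at -0.84 for 208650_s_at and -1.0035 for 209772_s_at. The highest intensity on any array was 11418 to 12339, and the hESC values of 216379_x_at, 9376 to 9615, came near it. CD24 also has near-identical copies elsewhere in the genome. The endings _x_at and _s_at mark probe sets whose probes can read several transcripts, so that their values may include other transcripts. The share was not tested. All probe sets of EPCAM, PROM1 and THY1 carry these endings too. None of the 19 alternatives for member probe sets leaves such probe sets out, so they cannot address this limit.

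L1CAM, a neural adhesion molecule of the L1 family, rose on 1 of its 2 probe sets. The probe set 204584_at read 892, 1213 and 1160 in the progenitors and 768, 693 and 722 in hESC. All 3 progenitor values were above the hESC values, with array 1 the lowest of them. The mean was 1.495-fold higher and the log2 change 0.60 (SE 0.138, 95% interval 0.28 to 0.93, limma adjusted p = 0.0109). Without progenitor array 1 the change was 0.75, and with hybridization control scaling it was 1.08. The other L1CAM probe set, 204585_s_at, was below the median of every array, at 18.6 to 23.9 in the progenitors against 17.7 to 25.9 in hESC, with a change of 0.08 (limma adjusted p = 0.626). The groups of that dim probe set overlapped.

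ALCAM, which binds itself and the lymphocyte receptor CD6, had small increases, and whether they passed depended on single arrays and on the normalization. The probe set 201952_at read 2983, 2364 and 2412 in the progenitors and 1898, 2248 and 1721 in hESC. The groups did not overlap, but progenitor array 2 was only slightly above hESC array 2. The log2 change was 0.48 (SE 0.126, 95% interval 0.18 to 0.77, limma adjusted p = 0.0197). It no longer passed without progenitor array 1 (0.38, limma adjusted p = 0.0506), without hESC array 1 (0.46, limma adjusted p = 0.0682) or without hESC array 3 (0.41, limma adjusted p = 0.0575), nor with all arrays but no normalization (0.40, limma adjusted p = 0.0572). Over all 19 alternatives its adjusted p ranged from 0.000166 to 0.0682.

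The probe set 201951_at of ALCAM read 1294, 935 and 893 in the progenitors and 624, 1054 and 684 in hESC. The high hESC array 2 lay within the range of the progenitors. The change was 0.47 (SE 0.218, 95% interval -0.04 to 0.98, limma adjusted p = 0.135) and passed without hESC array 2 (0.68, limma adjusted p = 0.0297), with adjusted p-values of 0.00206 to 0.354 over the alternatives. The third probe set, 1569362_at, was below the median of every array, at 18.7, 20.8 and 21.4 against 14.04, 13.5 and 14.2. It passed the test with a change of 0.36 (SE 0.085, limma adjusted p = 0.0127), but no longer without progenitor array 2 (limma adjusted p = 0.0514) or without progenitor array 3 (limma adjusted p = 0.0572). Over the alternatives its adjusted p ranged from 0.00243 to 0.0572.

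MCAM, an adhesion molecule of endothelium, smooth muscle and mesenchymal cells, had no difference that passed the test with all 6 arrays. The probe set 209087_x_at read 607, 297 and 330 in the progenitors and 385, 378 and 395 in hESC. The hESC arrays were tightly grouped, while progenitor array 1 was above all of them and arrays 2 and 3 below. The log2 change was -0.00034, with a 95% interval of -0.58 to 0.58, so a change of up to about 0.58 in either direction remained within the interval. Without progenitor array 1 the change was -0.31 (limma adjusted p = 0.052, and 0.052 to 1.0 over all alternatives). When arrays were scaled on the controls, it was 0.52. The direction therefore depended on 1 array and on the scaling. The second probe set, 1568191_at, read 62.1, 52.9 and 60.2 against 68.1, 59.1 and 49.4, and changed by 0.09 (95% interval -0.17 to 0.35, limma adjusted p = 0.595). With hybridization control scaling it passed at 0.41 (limma adjusted p = 0.0184), with adjusted p-values of 0.0184 to 0.987 over the alternatives.

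NT5E, the ectoenzyme that turns extracellular AMP into adenosine and a common mesenchymal stromal marker, was below the median of every array on all 4 probe sets. The probe set 203939_at read 13.2, 3.44 and 2.19 in the progenitors and 14.2, 16.3 and 19.3 in hESC. Arrays 2 and 3 of the progenitors were low, and array 1 was close to hESC. Its change was -0.53 (SE 0.192, 95% interval -0.98 to -0.07, limma adjusted p = 0.067), and -0.75 without progenitor array 1 (limma adjusted p = 0.00402), with adjusted p-values of 0.00402 to 0.199 over the alternatives. The probe sets 1553994_at, 227486_at and 1553995_a_at changed by -0.10, 0.09 and 0.08, and none of these passed (limma adjusted p from 0.464 to 0.627). With all 6 arrays, 203939_at also passed without normalization (-0.58, limma adjusted p = 0.0427) and with array weights (-0.62, limma adjusted p = 0.00904).

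Of the 22 probe sets outside the sort, 11 fell, 3 rose and 8 did not pass. That is 50% lower and 13.6% higher, where the same test called 20.0% of all 54613 probe sets lower and 20.3% higher. The median change was -0.66, against 0.01 over all probe sets. The groups did not overlap in 15 of the 22 (68.2%), against 51.2% of all probe sets. These 22 are not independent, since CD24 and THY1 account for 9 of the 11 falls. In the fit of 1 probe set per gene, 4 of the 8 genes were lower, 2 higher and 2 did not pass, where 21.2% of 19775 genes were called lower and 26.7% higher. Under hybridization control scaling, the 22 probe sets gave 7 lower and 5 higher, where 6105 of all probe sets were lower and 19604 higher.

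Calls were also counted by brightness. Of the 16 probe sets above the array median on all 6 arrays, 11 fell and 2 rose (median change -0.82). Over all probe sets of that brightness, 28.1% were called lower and 29.1% higher. The groups did not overlap in 13 of the 16 (81.25%), against 70.3% of all probe sets of that brightness. Of the 6 probe sets below the median on all arrays, 1 rose, 0 fell and 5 did not pass with limma, and 1 was lower at an unadjusted p under 0.05. The share of calls among all probe sets this dim was not counted. These 6 therefore have no base beside them and are not set against the bright members. The median change of these dim probe sets was 0.08.

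**Figure D2:**
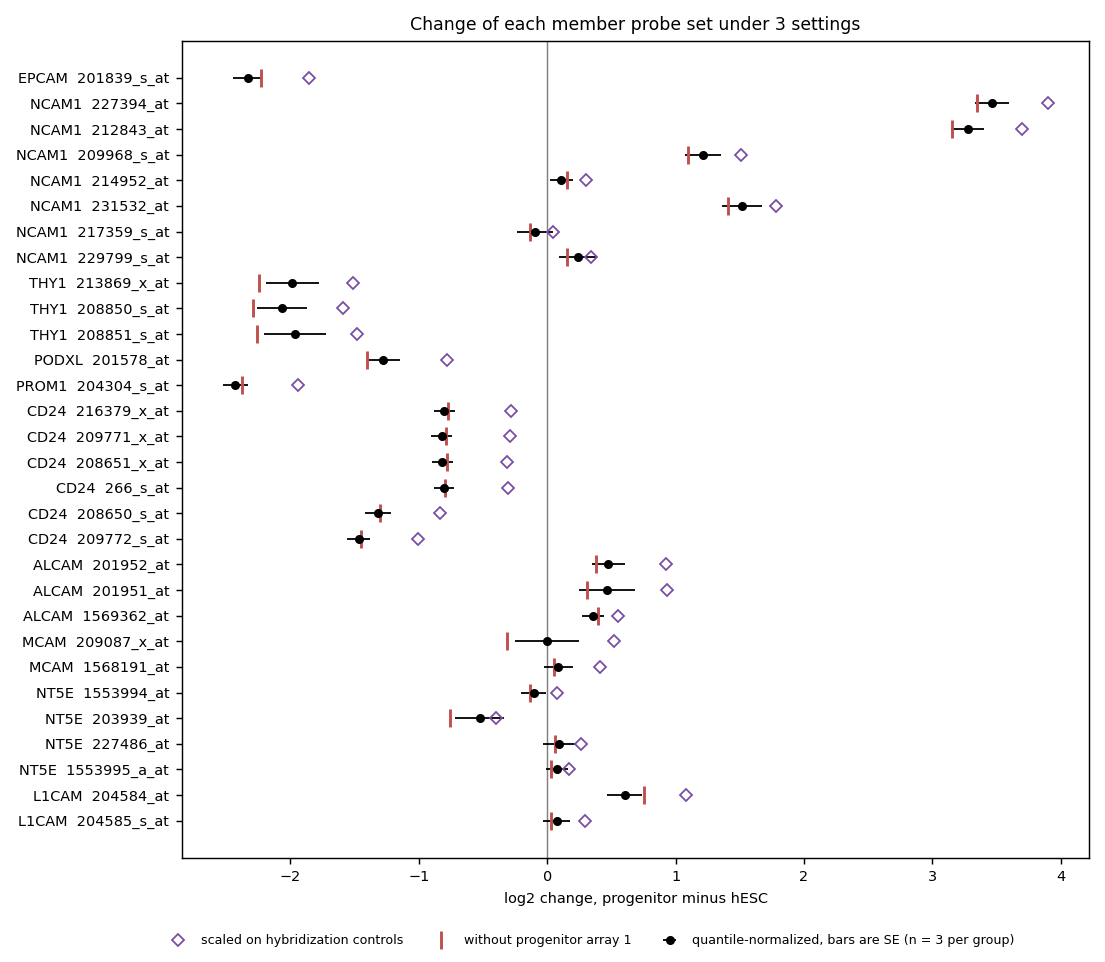
Log2 change (progenitor minus hESC) of each of the 30 member probe sets on the horizontal axis, under 3 settings. Black points with bars are the quantile-normalized change with its SE (n = 3 per group), red ticks leave out progenitor array 1, and open diamonds use arrays scaled on the hybridization controls. Diamonds lie to the right of the black points, and those of the 4 CD24 probe sets with the smallest falls lie at -0.31 to -0.28.

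Probe sets of the same gene were compared by the difference between each one and the brightest one on every array. For CD24, 209772_s_at minus 216379_x_at was -2.24 to -2.22 in the progenitors against -1.67 to -1.46 in hESC, so its fall was larger by -0.67. The difference for 208650_s_at was -0.52, with separate groups as well. These pairs each had an exact permutation p of 0.1 (two-sided, 3 arrays against 3, adjusted p = 0.233 over 14 pairs), and 0.1 is the smallest p that this design allows. In all, 6 of the 14 pairs reached it, among them CD24 209771_x_at with a difference of only -0.02, and pairs of L1CAM and NT5E in which a probe set was below the array median. The THY1 probe sets, in contrast, differed in their change by only 0.02 and -0.08, with overlapping groups.

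Among probe sets above the array median, progenitor array 1 was higher than the mean of arrays 2 and 3 in THY1, PODXL, MCAM, ALCAM and NCAM1, and lower in L1CAM, EPCAM and PROM1. The log2 difference between array 1 and the mean of the others was 0.92 for MCAM (209087_x_at), 0.40 for PODXL and 0.30 and 0.49 for ALCAM (201952_at and 201951_at). It was -0.43 for L1CAM (204584_at) and -0.18 for PROM1, while the CD24 probe sets differed by -0.09 to -0.01. Among the member probe sets above the array median, MCAM 209087_x_at thus deviated the most and those of CD24 the least. The other MCAM probe set, 1568191_at, differed by only 0.09.

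Markers of endothelial and blood cells moved with that array. On array 1, all 9 measured markers exceeded their mean over arrays 2 and 3, by a median log2 difference of 1.83, and their summed intensity was 6699 there against 2078 and 2262 on arrays 2 and 3 and 612 to 675 in hESC. CDH5 (VE-cadherin) read 1012 on array 1, 102 and 121 on arrays 2 and 3, and a mean of 1.89 in hESC. TAL1, a blood and endothelial transcription factor, read 642 against 90.4 and 114. PECAM1 (CD31) differed by probe set. Its brightest, 1559921_at, was even at 49.6, 42.6 and 51.5 in the progenitors and a mean of 53.0 in hESC, whereas 208982_at read 194, 45.1 and 41.8 against 25.2, 29.1 and 29.8. Summed definitive endoderm markers were 2968 on array 1 against 1162 and 1134, and 117 to 142 in hESC, with 6 of 8 higher on array 1. SOX17 is in both this list and the endothelial one, so the 2 sums are not separate. Summed neuroectoderm markers were 4163 against 2035 and 2015, and 1437 to 1613 in hESC, with 5 of 8 higher on array 1. Most of the sum came from DLK1 (2856 against 1329 and 1284) and OTX2 (1096 against 617 and 636). The part of these cells in the values of THY1, PODXL, MCAM, ALCAM and NCAM1 was not tested.

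**Figure D3:**
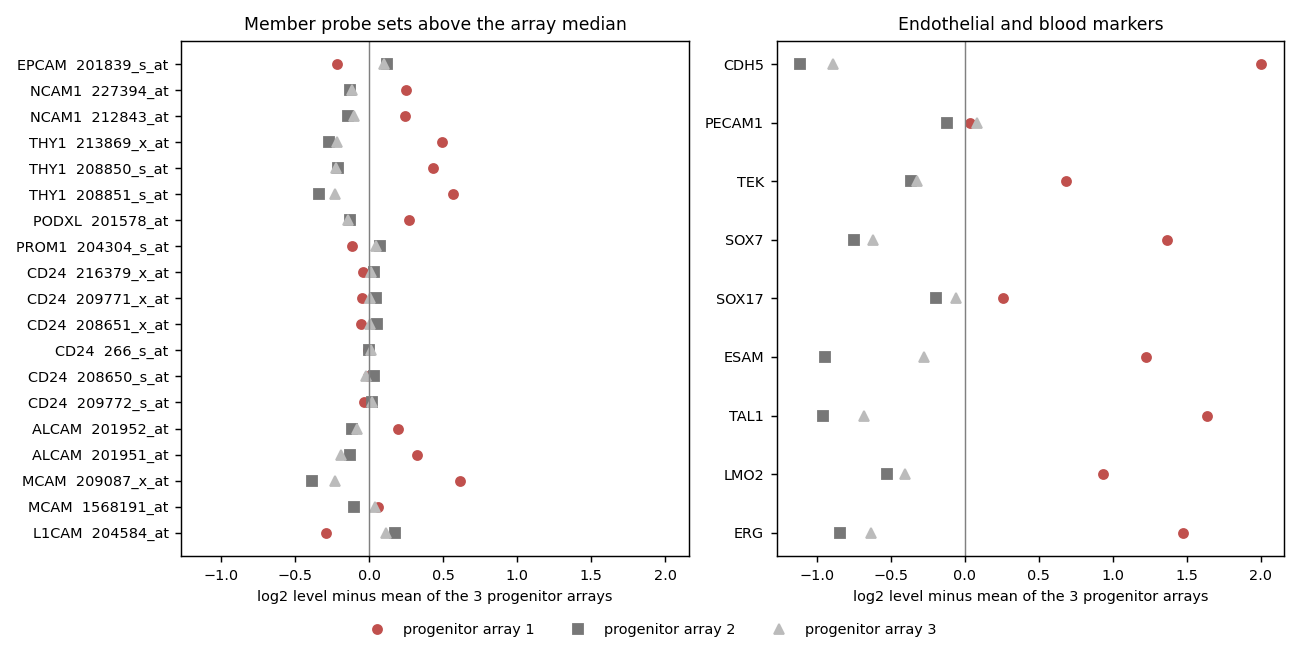
Log2 level on each progenitor array minus the mean of the 3 progenitor arrays, for the member probe sets above the array median (left) and 9 endothelial and blood markers (right), on the same horizontal scale. Red circles are array 1, dark squares array 2 and light triangles array 3. Array 1 lies to the right for THY1, PODXL, MCAM 209087_x_at and most endothelial markers, and array 1 and the others nearly coincide for CD24 and for the brightest PECAM1 probe set.

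Genes that work with the members were counted in lists, in the fit of 1 probe set per gene. The lists were chosen with earlier results of these data known, so the counts are a description. Beside them, 26.7% of all genes were called higher and 21.2% lower. The median change of all genes was 0.04. With hybridization control scaling, 9102 of the 19775 genes were called higher and 2002 lower. List counts given below under that scaling have this base instead. Most lists held changes in both directions. Each gene is given on its brightest probe set, and other probe sets of a gene often gave less: of the 54 called genes that the naming rule takes from these lists, 25 changed by over 1.5 times less on the mean of a gene's probe sets, 2 changed by over 1.5 times more and 4 lost the call. Changes are log2 values for 3 arrays per group, and each list's range of SE is given with it.

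Of 15 measured genes of EPCAM cleavage and its membrane partners, 4 rose, 7 fell and 4 did not pass (median change -0.10). The tight junction protein CLDN7 and the tetraspanin CD9, both membrane partners of EPCAM, fell by 3.30 and 3.11. PSEN2, a catalytic subunit of gamma-secretase, fell by 1.85. The proteases BACE1 and ADAM17 rose by 3.05 and 0.45, and the gamma-secretase subunit APH1A rose by 0.52 (SE 0.088 to 0.272 over these 6 genes, limma adjusted p at most 0.00926). PSENEN, another subunit, had a change of 0.05 and did not pass. APH1A no longer passed with probe sets ending in _x_at and _s_at left out (0.37), and the list then had 2 genes higher and 4 lower. Proteases and subunits that act on EPCAM thus changed in both directions. When arrays were scaled on the controls, 7 genes rose and 7 fell.

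Of 13 genes of NCAM1 polysialylation and NCAM1 binding, 4 rose, 6 fell and 3 did not pass (median change 0.05). Both polysialyltransferases that modify NCAM1 rose, ST8SIA4 by 2.30 and ST8SIA2 by 1.56, as did the prion protein PRNP by 1.07. The contactin CNTN1 fell by 3.04, the proteoglycan agrin (AGRN) by 1.79 and the growth cone protein GAP43 by 1.54 (SE 0.1001 to 0.329, limma adjusted p at most 0.000872). The phosphatase PTPRA was at 0.38 and did not pass. With hybridization control scaling 6 genes rose and 4 fell, and PTPRA passed at 0.91. PTPRA also passed with the replicate block (limma adjusted p = 0.0296), with median centring, with either filter on dim genes and on the mean of its probe sets (limma adjusted p from 0.000349 to 0.701 over its alternatives).

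Of 18 other adhesion molecules of the L1 and immunoglobulin class, 6 rose, 7 fell and 5 did not pass (median change -0.03). CHL1, the close homologue of L1CAM, rose by 3.81, the hedgehog co-receptor BOC by 3.28 and CADM1 by 0.90. The laminin receptor BCAM fell by 2.93, CADM4 by 1.45 and NECTIN1 by 1.24 (SE 0.085 to 0.154, limma adjusted p at most 0.000105). The guidance receptor ROBO1 was at 0.10 and did not pass. Under hybridization control scaling, 9 rose and 4 fell.

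Of 12 genes of the podocalyxin family and its apical partners, 4 rose, 4 fell and 4 did not pass (median change 0.21). The scaffold NHERF1, which binds the tail of podocalyxin, rose by 1.73 and the actin linker moesin (MSN) by 1.27. The tricellular junction protein MARVELD2 and the polarity kinase PRKCZ fell by 1.51 each, and PODXL2 (endoglycan) by 0.87 (SE 0.076 to 0.207, limma adjusted p at most 0.0103). PARD6B was at 0.11 and did not pass. When arrays were scaled on the controls, 6 rose and 4 fell.

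Of 5 relatives of PROM1 and proteins of protrusions, 3 fell and 1 rose. The tweety family members TTYH1 and TTYH2 changed by -2.54 and -1.12 and the photoreceptor cadherin CDHR1 by -0.63, while TTYH3 rose by 0.45 (SE 0.093 to 0.332, limma adjusted p at most 0.0475). PROM2 was at 0.32 and did not pass, but passed without hESC array 3 (0.56), with array weights (0.58) and with hybridization control scaling (0.74). The call of TTYH3 was lost without progenitor array 1 or 3 and without hESC array 2 or 3 (0.31 to 0.46), and that of CDHR1 with hybridization control scaling (-0.26). The direction of TTYH2 turned to 0.25 with the probe sets ending in _x_at and _s_at left out.

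Of 8 binding partners of CD24 and ALCAM and enzymes that build their glycans, 3 rose, 2 fell and 3 did not pass (median change 0.17). The kinases SRC and LYN, which signal beneath CD24, rose by 3.15 and 0.82, and CD5 rose by 0.74. On the mean of a gene's probe sets SRC rose by 0.64, and CD5 no longer passed (0.24). Without progenitor array 1 LYN rose by 0.47. The glycosyltransferase GALNT3 fell by 4.22 and CD6, the lymphocyte receptor of ALCAM, by 0.69 (SE 0.118 to 0.196, limma adjusted p at most 0.0231). Both CD5 and CD6 were dim, below the array median on 4 and 5 of the 6 arrays. CD5 read 21.4 to 33.6 in the progenitors against 7.97 to 15.4 in hESC, and CD6 6.43 to 15.2 against 19.6 to 40.7. The fucosyltransferase FUT4 was at 0.35 and did not pass, but passed without hESC array 3 (0.52) and with hybridization control scaling (0.87). The call of CD6 was lost without progenitor array 1 (-0.59) or 2 (-0.62) and without hESC array 2 (-0.50), with array weights (-0.38) and on the mean of its probe sets, where the change was -0.02. With hybridization control scaling 4 genes rose and 2 fell.

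Of 14 genes of extracellular nucleotide and adenosine handling around NT5E, 4 rose, 3 fell and 7 did not pass (median change 0.02). Adenosine deaminase (ADA) rose by 2.51, the ectonucleotidase ENTPD3 by 1.21 and adenosine kinase (ADK) by 0.63. The nucleoside transporters SLC29A1 and SLC29A2 fell by 2.94 and 0.64, and DPP4, the docking protein of adenosine deaminase, by 0.84 (SE 0.098 to 0.179, limma adjusted p at most 0.00179). NT5C2 was at -0.21 and did not pass, but passed as lower under 5 alternatives, with changes of -0.27 to -0.17. Under hybridization control scaling, 6 rose and 2 fell, and SLC29A2 no longer passed (-0.15).

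Of 25 genes that make and remodel GPI anchors, which THY1, CD24 and NT5E carry, 9 rose, 7 fell and 9 did not pass (median change 0.23). PIGP rose by 1.30, PIGX by 0.76 and PIGK by 0.56, while PIGM fell by 1.73, PIGG by 1.14 and PIGW by 0.87 (SE 0.082 to 0.131, limma adjusted p at most 0.00751). PIGT, a subunit of the transamidase that attaches the anchor, was at 0.40 and did not pass. Another PIGG probe set passed in the opposite direction (0.71), so its direction is uncertain. When arrays were scaled on the controls, 16 genes rose and 3 fell. Without progenitor array 3, 5 genes rose on the quantile-normalized scale. PIGT passed without hESC array 3 (0.52), and PIGK lost its call when its probe sets were averaged (0.20).

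Other surface antigens of stem cells moved mostly downward. Of 17 genes, 13 fell, 1 rose and 3 did not pass (median change -1.69). The receptor phosphatase PTPRZ1 fell by 3.40, CD9 by 3.11 and the tight junction protein CLDN6 by 3.02, and NECTIN2 rose by 0.33 (SE 0.099 to 0.114, limma adjusted p at most 0.0481). The tetraspanin CD81 was at -0.02 and did not pass. CD9 is also in the list of EPCAM partners, so the 2 lists are not separate. With hybridization control scaling 11 fell and 4 rose, CD81 among them at 0.48. The rise of NECTIN2 passed only narrowly: it was lost when any 1 array other than hESC array 3 was left out, with changes of 0.23 to 0.36, and with the replicate block (limma adjusted p = 0.0593, and 0.000878 to 0.124 over its alternatives).

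The listed surface antigens of mesenchymal stromal cells moved upward where they passed. THY1, NT5E, MCAM and ALCAM are also standard markers of this cell type. THY1, which passed as lower, is not in the list, so the counts do not cover it. Of the 16 listed genes, 9 rose, 0 fell and 7 did not pass (median change 0.54). None was lower at an unadjusted p under 0.05 with limma either, and 1, CD109, fell when progenitor array 1 was left out (-0.49). Under hybridization control scaling, 14 rose and 0 fell. The cadherin CDH11 rose by 4.33, the receptor PDGFRA by 4.21 and the integrin chain ITGA5 by 3.22 (SE 0.093 to 0.289, limma adjusted p at most 1.93e-05). On the mean of its probe sets PDGFRA rose by 1.17. The immunoglobulin protein BSG was at 0.03 and did not pass. CD44, chosen after its values were seen, read 849 on progenitor array 1 against 296 and 297 on arrays 2 and 3 and 204 to 220 in hESC. The change of CD44 was 0.90 (SE 0.376, limma adjusted p = 0.0878) and did not pass, and it was 0.41 without progenitor array 1. Arrays 2 and 3 were above hESC for CD44, unlike for MCAM (209087_x_at). THY1 fell, NT5E was dim, and MCAM and ALCAM had small or unsettled changes while CDH11, PDGFRA and ITGA5 rose.

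Of 9 surface antigens of mesoderm, 7 rose, 1 fell and 1 did not pass (median change 2.87). The apelin receptor APLNR rose by 7.61, PDGFRA by 4.21 and the aminopeptidase ANPEP by 3.16. The receptor KIT fell by 2.00 (SE 0.087 to 0.107, limma adjusted p at most 2.69e-06), and the cadherin CDH2 was at 0.06 and did not pass. PDGFRA is also in the mesenchymal list, and PDGFRA and APLNR are among the markers of nascent mesoderm. The counts of these lists are therefore not separate. The increase of ANPEP was not seen with the probe sets ending in _x_at and _s_at left out, where the change was -0.16. When arrays were scaled on the controls, 8 genes rose and 1 fell.

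**Figure D4:**
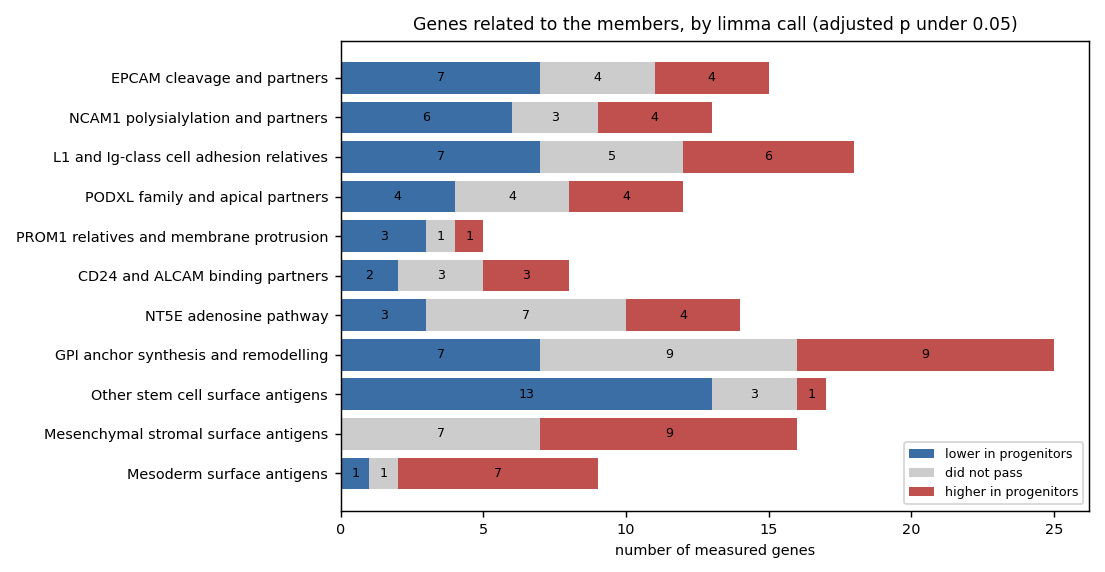
Number of measured genes in each of 11 lists that were lower (blue), higher (red) or did not pass (grey) in the progenitors, by limma at an adjusted p under 0.05. The list of other stem cell surface antigens has 13 genes lower and 1 higher, whereas that of mesoderm surface antigens has 7 higher and 1 lower.

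The genes most like the sort antigens were found by the Euclidean distance over the 6 arrays between log2 profiles, each minus its own mean. Nearest to EPCAM were ZDHHC23, a protein palmitoyltransferase, at a distance of 0.137, ATP8A2, a phospholipid flippase, at 0.139 and SLC1A6, a glutamate transporter, at 0.175. Nearest to NCAM1 were PROS1, the anticoagulant protein S, at 0.172, ST8SIA1, a sialyltransferase of gangliosides, at 0.173 and FLRT2, a leucine-rich repeat adhesion protein, at 0.23. Their changes were -2.37, -2.37 and -2.33 beside EPCAM and 3.51, 3.40 and 3.50 beside NCAM1. The points are 6 arrays in 2 groups, so the likeness rests mainly on the group difference.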

How the data were processed

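Total RNA of 6 samples was hybridised to single-colour arrays after amplification to biotinylated cRNA with the MessageAmp Premier kit, per the labels' protocols. The deposited values are intensities on a linear scale, as the values show, with 2.15% of them at 1. How probes were summarised, background was corrected and arrays were scaled is not given in the sources used. Depth has no meaning for arrays, and 3 arrays per group limit the precision.

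Intensities were converted to log2(intensity + 16) and quantile-normalized. All 54613 probe sets other than array controls, and separately the brightest 1-gene probe set of 19775 genes, were fitted with lmFit and eBayes of limma 3.58.1 (R 4.3.3, two-sided, 2 groups, no covariate), with Benjamini-Hochberg adjustment over all features and 0.05 as the threshold on the adjusted p. The test was tested on simulated data with 50 changed probe sets of each size. It recovered 4% at a log2 change of 0.5, 80% at 1 and 100% at 2 and at 4, with 9 false calls. Far fewer probe sets were changed there than were called on the arrays. The adjustment was therefore stricter there, and these shares need not hold for the arrays. Symbols came from the platform annotation, updated through RefSeq for 41043 of 41097 1-gene probe sets. Exact permutation tests used SciPy 1.17.1, and figures matplotlib 3.10.9.

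The members and lists were chosen with earlier results of these data known. All members are named, and of each list up to 3 genes with the largest rise, up to 3 with the largest fall and the brightest that did not pass. Of the marker lists only sums, counts and single genes are given. Genes beyond this rule are said to be chosen after their values were seen, some listed genes are not analysed here, and 1 gene that the rule names is not reported here. Same-numbered arrays of the 2 groups did not deviate together (r of -0.03, 0.05 and -0.06 across probe sets, which are not independent), so the numbers pair no samples. Alternatives covered the pseudocount, normalization, dim probe sets, variance model, array weights, the replicate number as a block, single arrays left out, arrays 2 and 3 of the progenitors averaged, the threshold and the choice of probe sets.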

Additional observations from a re-analysis of the deposited data

How the results depend on the processing

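The 3 calls that rose and 11 that fell among the 22 probe sets outside the sort were 2 to 4 and 11 to 12 when single arrays were left out, and 3 and 11 with the replicate block, under which 10158 of all probe sets rose and 10086 fell. The replicate numbers pair no samples. With hybridization control scaling, 5 member probe sets rose and 7 fell, against 19604 and 6105 of all probe sets and 9102 and 2002 of all genes. At an adjusted p under 0.01, 0 member probe sets rose with limma, while 3 did at an unadjusted p under 0.05. Of 410 values of member probe sets under the alternatives, 376 kept their direction and their side of the threshold, 14 lost the call, 7 gained it and 13 changed sign. Causes were not tested. All NT5E probe sets were below the median of every array.

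Sign changes among members were as follows. MCAM 209087_x_at went from -0.00034 to 0.0058 at a pseudocount of 64, 0.018 without normalization, 0.12 with median centring, 0.52 with hybridization control scaling and 0.15 with progenitor arrays 2 and 3 averaged, and ranged from -0.31 to 0.19 with single arrays left out. MCAM 1568191_at was -0.0034 without normalization and -0.027 with array weights, NT5E 1553994_at was 0.079 with hybridization control scaling, NT5E 227486_at ranged from -0.017 to 0.21 with single arrays left out, and L1CAM 204585_s_at was -0.015 without normalization. The difference between probe sets turned to 0.18 for ALCAM 1569362_at at a pseudocount of 1 and to 0.00042 for CD24 266_s_at at 64.

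With probe sets ending in _x_at and _s_at left out, ANPEP was -0.16, FUT4 -0.23, NT5C2 0.19, PIGG 0.71, PROM2 -0.17, PTPRA -0.10 and TTYH2 0.25. With hybridization control scaling, CD81 was 0.48, NT5C2 0.25 and PECAM1 0.29. On the mean of probe sets, PECAM1 was 0.57 and PIGT -0.21, and PECAM1 was 0.68 at a pseudocount of 64. Without normalization, BSG was -0.039, CDH2 -0.016 and PSENEN -0.0082. BSG was -0.033 with array weights, and CD81 was 0.058 with median centring and 0.0103 with progenitor arrays 2 and 3 averaged. With single arrays left out, BSG ranged from -0.069 to 0.12, CD81 from -0.076 to 0.018, CDH2 from -0.036 to 0.13, PECAM1 from -0.053 to 1.17 (another of its probe sets was then the brightest) and PSENEN from -0.081 to 0.15.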

Other observations

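RNAs transcribed beside the sort antigen genes were examined after the values of the members had been seen. As the NCAM1 and EPCAM proteins chose the cells, these values are a description and carry no test. The antisense RNA NCAM1-AS2 (1562699_at) read 47.5, 39.4 and 50.7 in the progenitors and 7.38, 11.7 and 12.2 in hESC. All progenitor values were above the hESC values, and the log2 change was 1.31 (SE 0.117). Whether this probe set reads the antisense strand alone was not tested. The divergent transcript EPCAM-DT was below the median of every array on both of its probe sets, with changes of 0.31 (1562604_at) and 0.02 (237501_at).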
